A study of Mus musculus with 4 samples.

Results

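The genes described here encode the protein components of the cytosolic ribosome. They were taken by gene symbol: names beginning Rpl or Rps followed by a digit or by p, without the Rps6k kinases, without Rps27l, and without names that mark a pseudogene. The rule took 84 of the 32285 genes in the count tables. Of these, 31 encode proteins of the small subunit and 52 encode proteins of the large subunit. The remaining gene, Rps19bp1, encodes a protein that binds RPS19 and is not itself a ribosomal protein. The rule does not reach some genes that belong to the ribosome or carry a ribosomal protein in a fusion, among them Rpsa, Fau and Rack1, which are given apart.

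The cells came from hindlimb muscle of male C57Bl/6J mice, profiled by droplet single-cell RNA sequencing of transcript 3′ ends. In the irradiated limb (IR), 1 hindlimb was given 3 fractions of 8.2 Gy X-rays at 5 weeks of age. The control (CON) was the shielded opposite limb of the same mice, so both limbs shared the circulation of an irradiated animal. Limbs were taken 24 hours after the last fraction or 56 days after irradiation. Cells of 3 limbs were pooled for each library and live nucleated cells were sorted. Each of the 4 groups was 1 library (IR 24 hours, CON 24 hours, IR 56 days, CON 56 days). No difference between groups could therefore be tested, and irradiation and library cannot be told apart. Intervals below are exact, at 95%, and cover counting error only.

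After barcodes with under 200 genes, under 500 UMIs or over 20% mitochondrial UMIs were set aside, 2539 cells remained in IR 24 hours, 1336 in CON 24 hours, 969 in IR 56 days and 1700 in CON 56 days. A UMI (unique molecular identifier) counts 1 captured RNA molecule. The median cell held 3057 to 3627 UMIs, and a pair of libraries shared 1 to 3 cell barcodes. Cells were placed in 12 classes by marker genes, among them a mural-like class (pericytes or smooth muscle of vessel walls), and 83.7% to 87.6% of the cells of a library were placed. In the median endothelial-like cell, 7 of the 8 endothelial markers were detected in each library.

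Ribosomes are built from a fixed set of ribosomal proteins, and the mRNAs for these proteins are among the most abundant in growing cells. Most of them begin with a C followed by an unbroken run of pyrimidines, the 5′ terminal oligopyrimidine tract, through which the growth-regulating kinase complex mTORC1 and the RNA-binding protein LARP1 control their translation together. Some ribosomal proteins have a further role when they are not in a ribosome. RPL5, RPL11, RPL23 and RPL26 are known to act on the p53 pathway, which responds to DNA damage. In skeletal muscle fibres the gene Rpl3l, a paralog of Rpl3, is known to take the place of Rpl3.

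The start regions of 5 members are shown because the results below turn on them or because they show the tract. Each holds 25 bases before and 25 bases from the transcription start in RefSeq (build GRCm38.p6), in the sense direction. Capitals mark each C followed by at least 4 letters that are C or T, where that C lies within 10 bases of the start. Runs farther from the start are left in lower case. Rps6 lies on the minus strand (chr4:86857343-86857392), Rps27 on the minus strand (chr3:90213624-90213673), Rps27rt on the minus strand (chr9:114982715-114982764), Rps2 on the plus strand (chr17:24720038-24720087) and Rps19 on the plus strand (chr7:24884567-24884616, the start listed first for that gene).
Rps6: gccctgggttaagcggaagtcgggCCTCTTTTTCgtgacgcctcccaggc
Rps27: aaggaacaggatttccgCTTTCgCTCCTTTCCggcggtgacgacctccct
Rps27rt: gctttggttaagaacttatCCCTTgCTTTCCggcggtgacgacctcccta
Rps2: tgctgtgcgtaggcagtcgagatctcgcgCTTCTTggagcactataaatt
Rps19: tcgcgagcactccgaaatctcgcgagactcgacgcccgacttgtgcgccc

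A start region was found in the RefSeq table for 64 of the 84 members. In 39 of them (60.9%) a C followed by at least 4 pyrimidines began within 10 bases of a listed start, on the sense strand, against 34.4% of all genes in that table. In Rps6 the run spans the start itself. No such run lies near the start of Rps19 shown above, while one lies near another listed start of that gene. The windows of Rps27 and Rps27rt share 24 bases in a row from about the start onwards and differ before it. Over the aligned transcripts, 341 of 341 bases of Rps27 and Rps27rt were identical, so 3′ reads of these genes can hardly be separated and their values are uncertain. The same holds for Rpl10 and its pseudogene Rpl10-ps3 (740 of 740 bases) and for Rpl9 and Rpl9-ps6 (691 of 692). Rpl36a and Rpl36a-ps1 were less alike (431 of 438). Where their differences lie relative to the 3′ reads was not examined. Rpl10 had 834 UMIs over all kept cells. Rpl39l and Rpl10l had fewer than 100 UMIs each.

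Ribosomal protein genes made up 10.5% of all UMIs in IR 24 hours and 17.7% in CON 24 hours. They made up 13.1% in IR 56 days and 10.9% in CON 56 days. The irradiated library was thus the lower of the pair at 24 hours (ratio 0.594) and the higher at 56 days (1.21). The control libraries differed nearly as much from each other, with a ratio of 0.616 for CON 56 days over CON 24 hours. These figures mix cells of very different kinds. B-like, B precursor-like and T-like cells, the classes richest in these mRNAs, were 5.44% of the cells in IR 24 hours, 27.5% in CON 24 hours, 6.91% in IR 56 days and 5.12% in CON 56 days. Each class was then given the same weight in both libraries. The ratios were 0.831 at 24 hours (8 classes), 1.19 at 56 days (7 classes) and 0.919 between the control libraries (8 classes). The last value includes erythroid-like cells, whose own ratio was 4.14. Of its 8 classes, 6 had a ratio below 1, among them endothelial-like cells (0.796).

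The classes were spread over a wide range of shares, set out here as means over the libraries with 25 cells or more (2 to 4 for each class). T-like cells stood highest at 35.5% of their UMIs, followed by B-like cells (29.2%), B precursor-like cells (24.1%) and satellite-like cells, the muscle stem cells (21.7%). Macrophage- or monocyte-like cells had 16.5%, fibro-adipogenic progenitor-like cells, the fibroblast-like cells of muscle, 11.7%, and endothelial-like cells 9.93%. Below them came myofibre-like barcodes (9.60%), Schwann-like cells (8.34%), erythroid-like cells (7.51%) and mural-like cells (7.23%). Neutrophil-like cells were lowest (4.26%) by these shares, which are of UMIs summed over cells. Over libraries, endothelial-like cells ranged from 8.85% to 11.1%, and fibro-adipogenic progenitor-like cells from 9.88% to 12.7%. The T-like range, 32.1% to 38.9%, lay above that of B-like cells, 26.7% to 31.8%, each over 2 libraries. The ranges of neighbours in this order overlapped except between T-like and B-like, satellite-like and macrophage- or monocyte-like, macrophage- or monocyte-like and fibro-adipogenic progenitor-like, and mural-like and neutrophil-like cells. Some libraries left out for few cells fell outside these ranges. B-like cells had 33.3% in IR 56 days (15 cells), inside the T-like range, and 19.9% in CON 56 days (23 cells). Macrophage- or monocyte-like cells had 18.0% in CON 24 hours (13 cells), inside the satellite-like range. Erythroid-like cells were the most uneven class, with 2.92% in CON 24 hours and 12.1% in CON 56 days. They had 16.4% in IR 56 days, which their mean leaves out for its 24 cells. The median erythroid-like cell had only 0.826% in CON 24 hours and 2.03% in CON 56 days. For the median neutrophil-like cell these values were 2.47% and 2.04%, so neutrophil-like cells were not lowest by that measure. Their summed share in CON 24 hours (5.39%) lay above the 75th percentile of cells (3.36%).

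**Figure D1:**
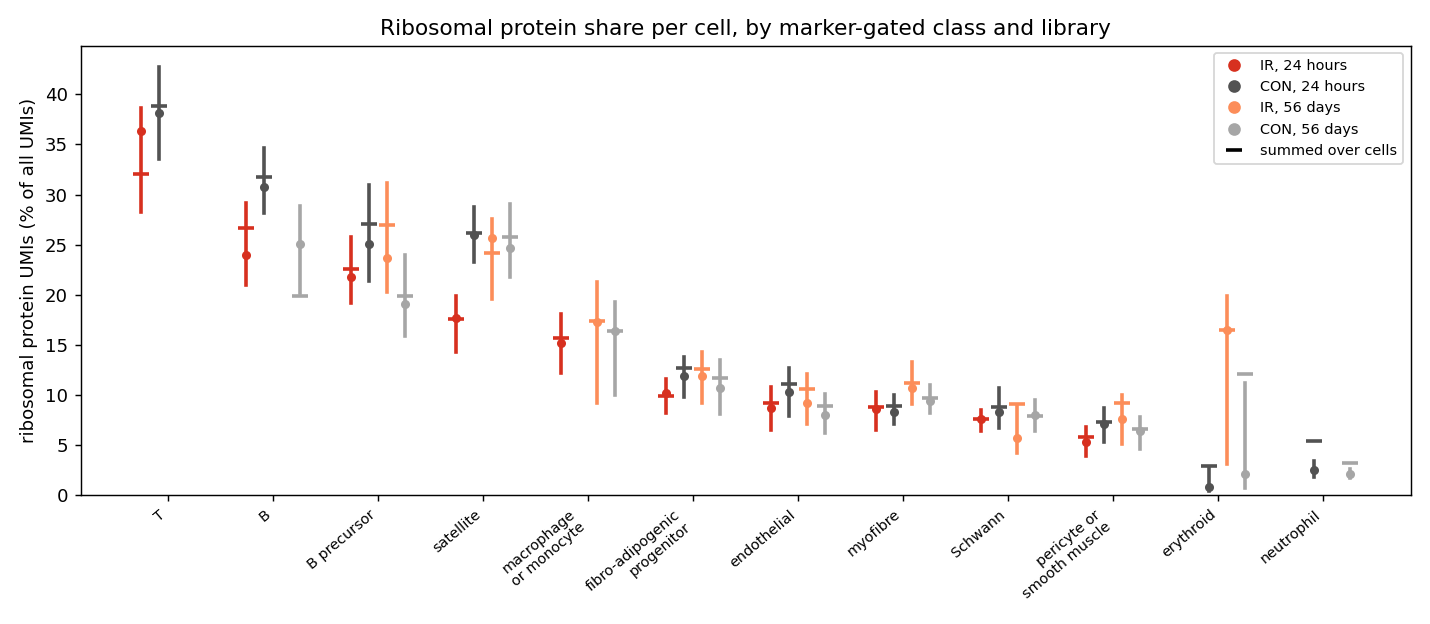
Share of UMIs from ribosomal protein genes (% of all UMIs, vertical axis) in each marker-gated class (horizontal axis) and library (colour). Points are the median cell, bars run from the 25th to the 75th percentile of cells, and dashes are UMIs summed over cells; classes with under 20 cells in a library are not drawn. T-like cells stand highest, and in erythroid-like cells the sum lies far from the median cell in CON 56 days.

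The balance between the subunits also differed between some classes. Small-subunit genes had 0.873 to 0.901 UMIs for each large-subunit UMI in neutrophil-like cells and 0.835 to 0.840 in B-like cells. Neutrophil-like cells of libraries left out for few cells had 0.980 (IR 24 hours, 19 cells) and 0.837 (IR 56 days, 18 cells). The latter value lay in the B-like range. The same ratio was 0.773 to 0.799 in endothelial-like cells and 0.670 to 0.700 in mural-like cells. These ranges over libraries did not overlap, but those of some other classes overlapped them. B precursor-like cells (0.810 to 0.851) spanned the B-like range. Schwann-like cells (0.686 to 0.738) and myofibre-like barcodes (0.652 to 0.752) overlapped mural-like cells. Macrophage- or monocyte-like (0.798 to 0.834) and satellite-like cells (0.769 to 0.786) overlapped endothelial-like cells. The T-like, erythroid-like and fibro-adipogenic progenitor-like ranges overlapped none of them.

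At 24 hours the share was lower in the irradiated library in each of the 8 classes that held 25 cells or more in IR and in CON, and the interval lay below 1 in 7 of them. Endothelial-like cells, the largest class, had 9.21% in IR (1442 cells) and 11.1% in CON (452 cells), a ratio of 0.829 (interval 0.824 to 0.833). The ratio was 0.780 in fibro-adipogenic progenitor-like cells, 0.793 in mural-like cells and 0.868 in Schwann-like cells. The lymphoid classes gave similar values, 0.839 in B-like, 0.833 in B precursor-like and 0.825 in T-like cells. Myofibre-like barcodes gave 0.990, with an interval that holds 1 (0.971 to 1.01). Satellite-like cells had 17.6% in IR (54 cells) and 26.1% in CON, a ratio of 0.672, which rests on 23 CON cells.

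At 56 days the order was turned round. The share was higher in the irradiated library in each of the 7 classes that held 25 cells or more on both sides. Endothelial-like cells had 10.6% in IR (458 cells) and 8.85% in CON (752 cells), a ratio of 1.19 (1.19 to 1.20). Mural-like cells had 9.22% in IR and 6.59% in CON, a ratio of 1.40. The ratio was 1.36 in B precursor-like cells, 1.16 in myofibre-like barcodes, 1.08 in fibro-adipogenic progenitor-like cells and 1.06 in macrophage- or monocyte-like cells. In Schwann-like cells the summed share gave 1.16, but the median cell had 5.70% in IR and 7.95% in CON, and the summed ratio was 0.910 without the 5% of cells with most UMIs. Satellite-like cells had 24.2% in IR (23 cells) and 25.8% in CON, a ratio of 0.940.

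Between the control libraries the endothelial-like share was 8.85% in CON 56 days and 11.1% in CON 24 hours, a ratio of 0.796 (0.792 to 0.801). This difference, between limbs that were never in the beam, was as large as the one between IR and CON at 24 hours. The share was lower in CON 56 days in 6 of the 8 classes that could be compared, with 0.734 in B precursor-like and 0.581 in neutrophil-like cells. Myofibre-like barcodes (1.09) and erythroid-like cells (4.14) went the other way. Without the 5% of cells with most UMIs the ratio was 0.884 in neutrophil-like and 2.19 in erythroid-like cells. Endothelial-like cells were also split by depth into those with under 2000, 2000 to 5000 and at least 5000 UMIs. In the middle range the share was 8.63% in IR 24 hours and 10.2% in CON 24 hours, and 9.41% in IR 56 days and 8.64% in CON 56 days. The other depth ranges gave the same directions at both times.

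The share of mitochondrially encoded transcripts moved opposite to that of ribosomal protein genes. In endothelial-like cells it was 4.05% in IR 24 hours and 3.36% in CON 24 hours, and 2.94% in IR 56 days and 3.97% in CON 56 days. The opposite directions held in 8 of 8 classes at 24 hours, in 7 of 7 at 56 days and in 6 of 8 between the control libraries. The part of this in the ribosomal protein shares was not tested, beyond leaving mitochondrial UMIs out of the total, which gave an endothelial-like ratio of 0.835 at 24 hours and 1.18 at 56 days. Shares are relative to the other RNA of the same cells and do not give an amount of RNA per cell.

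**Figure D2:**
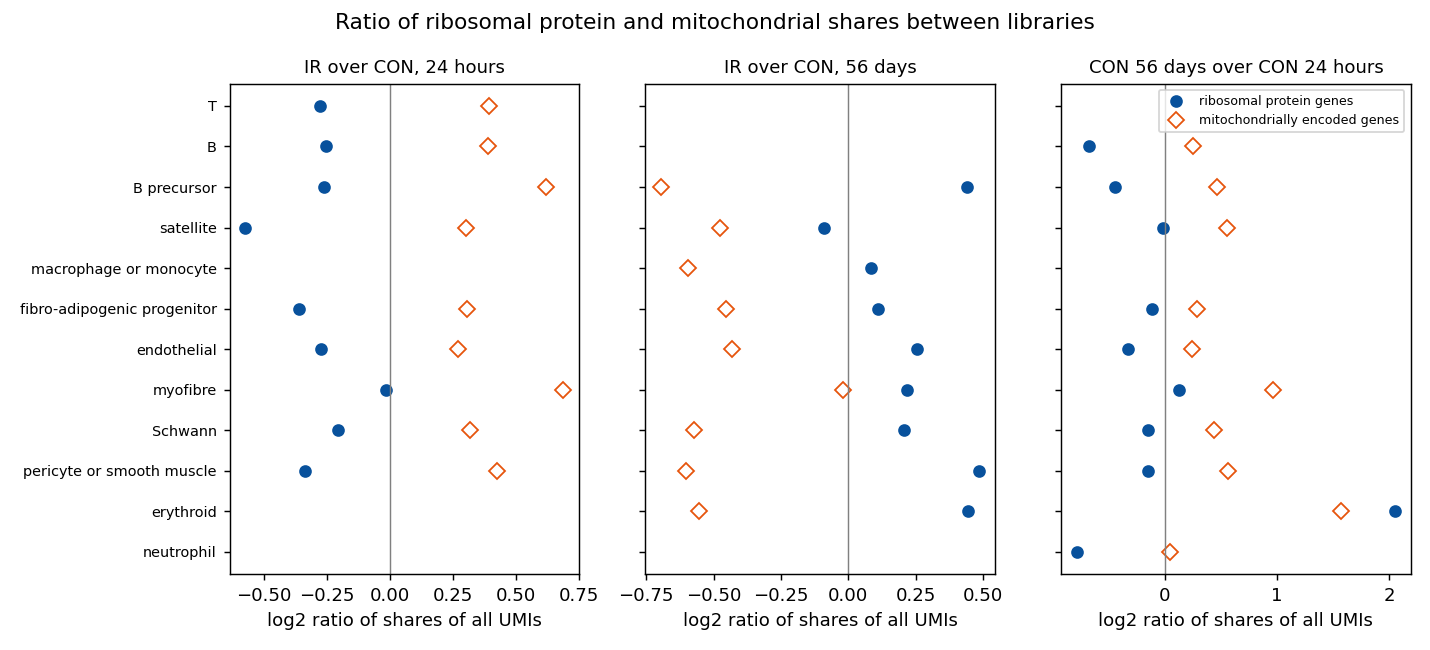
Log2 ratio of the share of all UMIs (horizontal axis) for ribosomal protein genes (filled circles) and mitochondrially encoded genes (open diamonds) in each class, for the 3 comparisons; the horizontal scale differs between panels. At 24 hours the circles lie at or left of 0 and the diamonds right of it, and at 56 days the sides are exchanged except for satellite-like cells, whose circle (ratio 0.940) stays left.

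Most members lay on the same side of the control. In endothelial-like cells 81 members had at least 20 UMIs over both libraries of a comparison. At 24 hours 77 of them were a smaller share of all UMIs in IR, and at 56 days 77 were a larger share. In CON 56 days over CON 24 hours all 81 were a smaller share. The median log2 ratio was -0.28 at 24 hours, 0.22 at 56 days and -0.32 between the control libraries, while that of all genes was 0.06, 0.02 and 0.01. Of all genes, 56.8% at 24 hours, 51.6% at 56 days and 51.5% between the control libraries had a ratio above 1. Each member was then set against the sum of the family, as a share of ribosomal protein UMIs. On that scale the median member lies near 0 by construction, and the ratios of all other genes carry the family's own shift, so that the median of all genes was 0.33 at 24 hours, -0.23 at 56 days and 0.34 between the control libraries. A member was called uneven when this share differed by at least 1.5-fold and the interval did not hold 1. At 24 hours 1 of 81 members was uneven and higher and none was lower, while by the same rule and scale 23.6% of the 10902 genes measured were higher and 1.1% lower. At 56 days 2 members were higher and none lower, against 4.12% and 20.6% of 10124 genes. Between the control libraries no member was uneven, against 25% higher and 1.75% lower of 10002 genes.

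**Figure D3:**
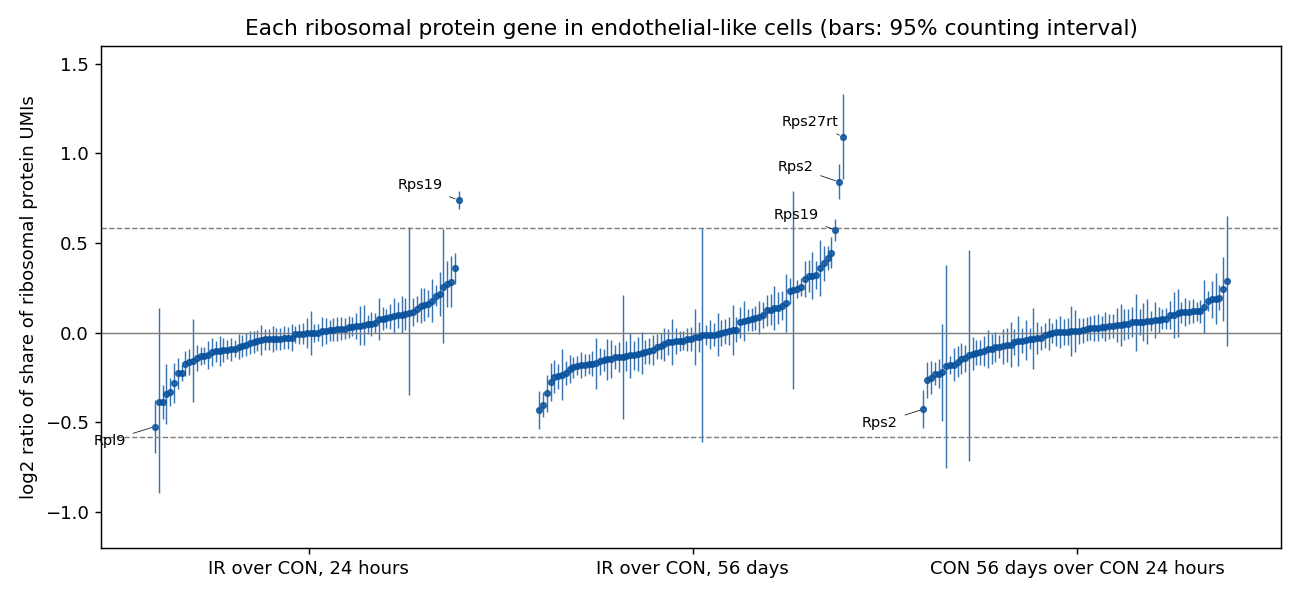
Log2 ratio of each member's share of ribosomal protein UMIs in endothelial-like cells (vertical axis), ordered by size within each of the 3 comparisons (horizontal axis). Bars are 95% counting intervals and dashed lines mark 1.5-fold; most members lie near 0, while Rps19 at 24 hours and Rps2 and Rps27rt at 56 days lie above the upper line.

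Rps19, a small-subunit protein needed to mature the 40S subunit and the gene most often mutated in Diamond-Blackfan anaemia in humans, was the uneven member at 24 hours. In endothelial-like cells it had 16961 UMIs in IR 24 hours and 3925 in CON 24 hours, or 3.43% and 2.06% of ribosomal protein UMIs. At 56 days it had 5262 UMIs in IR and 3957 in CON, or 2.61% and 1.76%. Both irradiated libraries thus stood above both control libraries. The ratio was 1.67 at 24 hours (1.61 to 1.73) and 1.49 at 56 days (1.43 to 1.55), against 0.853 for CON 56 days over CON 24 hours. As a share of all UMIs Rps19 was 1.38 times its CON level at 24 hours and 1.77 times at 56 days. Rps19 was thus higher at 24 hours on both scales, while the family as a whole was lower.

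The difference in Rps19 was spread over cells. In the median endothelial-like cell Rps19 was 3.33% of ribosomal protein UMIs in IR 24 hours and 2.01% in CON 24 hours, and 2.54% in IR 56 days and 1.67% in CON 56 days. The cell with most Rps19 UMIs held 0.454% of them in IR 24 hours and at most 3.14% in any library. The Rps19 share was higher in IR in each depth range at both times, for example 3.68% in IR 24 hours and 2.20% in CON 24 hours among cells with under 2000 UMIs. As a share of ribosomal protein UMIs, 1 of 81 members (Rps19) was over 25% higher in both IR than in both CON libraries of endothelial-like cells, and none was that much lower. Of all 10582 genes in that comparison, 4.28% were higher and 1.23% lower. As a share of all UMIs no member passed that limit in either direction, while 4.39% of genes were higher and 1.63% lower. On that scale Rps19 had 3161 CPM in IR 24 hours and 2756 CPM in IR 56 days. It had 2286 CPM in CON 24 hours and 1554 CPM in CON 56 days. CPM are UMIs scaled to a fixed total for the cells of the class in each library.

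Other stromal and vascular classes had the same order for Rps19. Mural-like cells had 2.03% of ribosomal protein UMIs in IR 24 hours and 1.44% in CON 24 hours, and 1.87% in IR 56 days and 1.57% in CON 56 days. Fibro-adipogenic progenitor-like cells had 2.24% in IR 24 hours and 1.61% in CON 24 hours, and 2.16% in IR 56 days and 1.63% in CON 56 days. Schwann-like cells had 1.81% in IR 24 hours and 1.22% in CON 24 hours, and 1.58% in IR 56 days and 1.32% in CON 56 days. In each of these classes both IR libraries were above both CON libraries, for the summed share and for the median cell. By summed share, other members had this order too in each of these classes, and others had the opposite order. The order was thus not particular to Rps19. The share of all genes with this order is not given here. In IR 56 days 1 cell held 34.7% of the Rps19 UMIs of Schwann-like cells, and 1 cell held 22.9% of those of mural-like cells. Satellite-like cells had 3.05% in IR 24 hours and 2.06% in CON 24 hours, and 2.34% in IR 56 days and 2.04% in CON 56 days, with 23 cells each in CON 24 hours and IR 56 days. The level of Rps19 as CPM in satellite-like cells was 5361 in IR 24 hours and 5386 in CON 24 hours, a ratio of 0.995 (0.914 to 1.08). It was 5658 CPM in IR 56 days and 5261 CPM in CON 56 days, a ratio of 1.08 (0.966 to 1.20).

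In the lymphoid classes the values for Rps19 were mixed. B-like cells had 2.25% in IR 24 hours and 2.45% in CON 24 hours, a ratio of 0.918. T-like cells had 2.06% in IR 24 hours and 2.04% in CON 24 hours. B precursor-like cells had 2.43% in IR 24 hours and 2.19% in CON 24 hours, and 2.09% in IR 56 days and 2.18% in CON 56 days. The ratio in these cells was 1.11 at 24 hours (1.04 to 1.19) and 0.961 at 56 days (0.879 to 1.05). In IR 56 days 1 cell held 27.3% of the Rps19 UMIs of B precursor-like cells. The median B precursor-like cell went the other way, with 2.33% in IR 56 days and 2.10% in CON 56 days. IR 56 days held too few B-like and T-like cells for a value. Over all classes the Rps19 ratio was above 1 in 7 of 8 at 24 hours and in 6 of 7 at 56 days, with intervals above 1 in 5 and in 3. Between the control libraries it was above 1 in 5 of 8, with an interval above 1 in 1 of them. Whether the ratio differed between lymphoid and stromal classes could not be tested with 1 library per group.

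Rps2, a protein near the mRNA entry of the small subunit, was lowest in CON 56 days. In endothelial-like cells it had 2220 UMIs in IR 56 days and 1386 in CON 56 days, or 1.10% and 0.615% of ribosomal protein UMIs, a ratio of 1.79 (1.67 to 1.92). At 24 hours it had 3488 UMIs in IR and 1577 in CON, or 0.706% and 0.827%, a ratio of 0.854. CON 56 days over CON 24 hours gave 0.744. IR 56 days was highest and CON 56 days lowest of the 4 libraries, and the IR and CON libraries overlapped. At 56 days Rps2 was higher in IR in 7 of 7 classes, by 1.30-fold in macrophage- or monocyte-like to 2.13-fold in B precursor-like cells. The last value rests largely on 1 cell, which held 56.7% of the Rps2 UMIs of B precursor-like cells in IR 56 days. The median B precursor-like cell had 0.797% in IR 56 days and 0.483% in CON 56 days. At 24 hours it was lower in IR in 8 of 8 classes, with an interval below 1 in 5.

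Rps27rt, an intronless gene whose sequence matches Rps27, was the other member above the limit at 56 days. In endothelial-like cells it had 437 UMIs in IR 56 days and 229 in CON 56 days, or 0.217% and 0.102% of ribosomal protein UMIs, a ratio of 2.13 (1.81 to 2.52). At 24 hours it had 525 UMIs in IR and 226 in CON, or 0.106% and 0.118%. IR 56 days stood apart from the other 3 libraries, which lay close together. The ratio at 56 days was above 1 in each of the 6 classes measured, up to 3.16 in Schwann-like cells (37 UMIs in IR and 13 in CON). Rps27 itself gave 1.28 at 56 days in endothelial-like cells. Summed over both genes, the ratio was 1.51 (1.38 to 1.66), and Rps27rt held 38.1% of the pair's UMIs in IR 56 days and 27.0% in CON 56 days. Of Rpl9 and Rpl9-ps6, the pseudogene held 35.8% of the pair's UMIs in IR 56 days and 19.8% in CON 56 days. Of Rpl10 and Rpl10-ps3, the pseudogene held 86.3% in IR 56 days and 74.5% in CON 56 days. All 3 pairs thus leaned more to the copy in IR 56 days than in CON 56 days in endothelial-like cells. At 24 hours Rps27rt held 36.7% in IR and 33.8% in CON. Rpl9-ps6 held 28.6% and 33.4% there, and Rpl10-ps3 80.6% and 82.6%. The copy's share was thus lowest in CON 56 days for each pair. In B precursor-like cells, erythroid-like cells and myofibre-like barcodes Rpl10-ps3 held less of its pair in IR 56 days than in CON 56 days. How reads shared by such copies were assigned is not given in the sources used here.

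**Figure D4:**
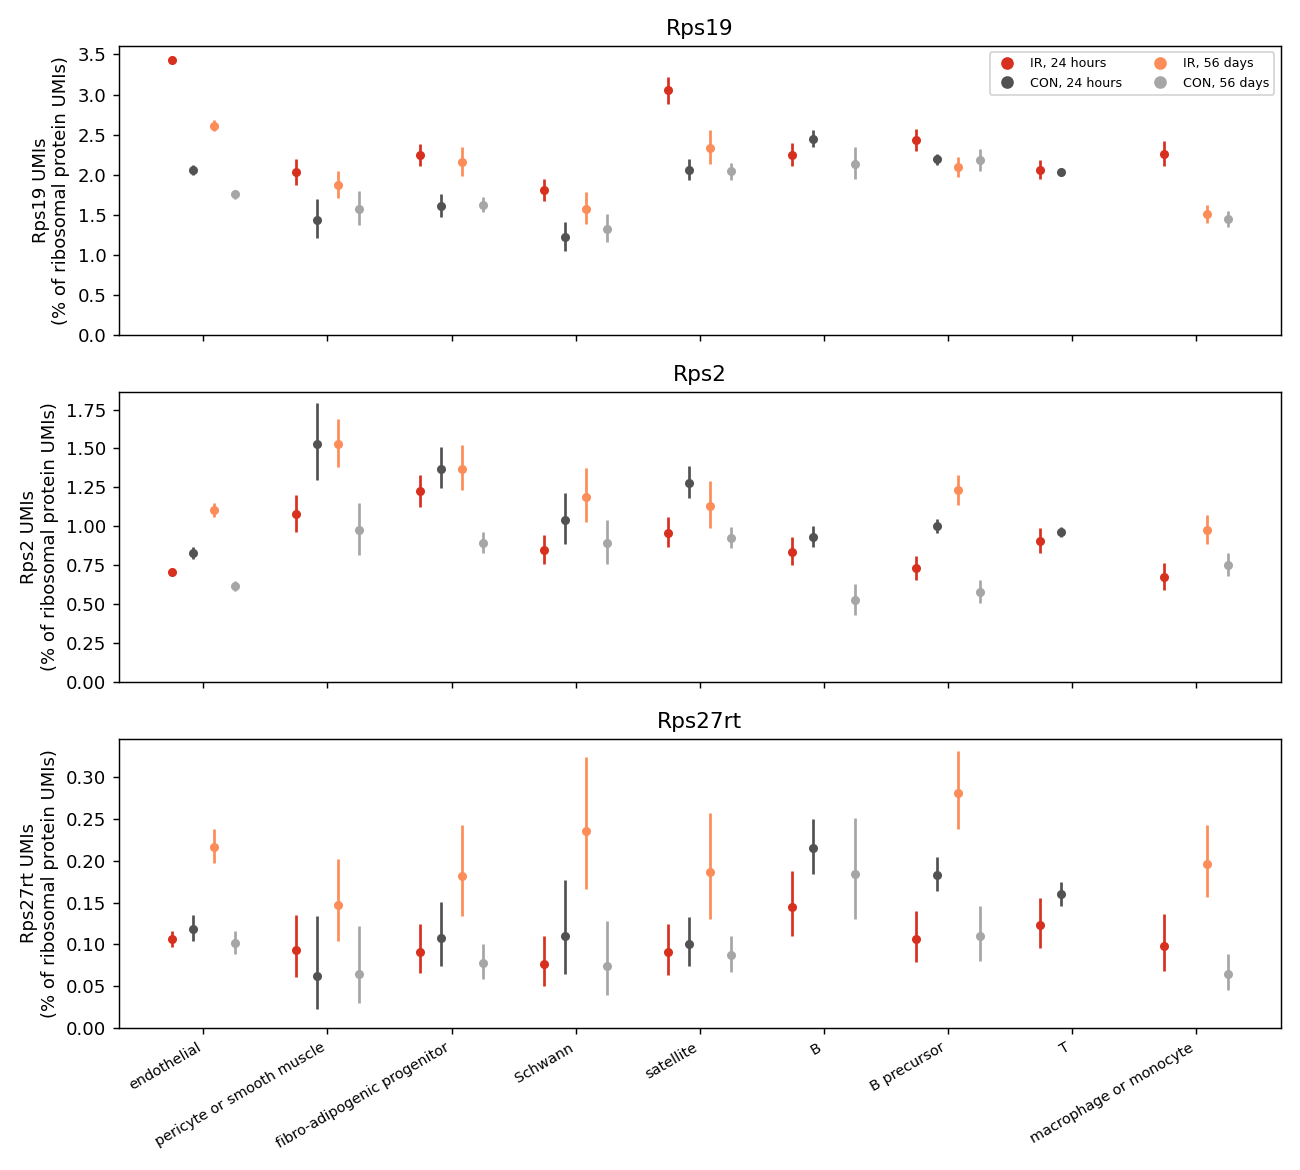
Share of ribosomal protein UMIs (%, vertical axis) held by Rps19, Rps2 and Rps27rt in 9 classes (horizontal axis) and each library (colour), with 95% counting intervals. Rps19 is higher in both IR libraries than in both CON libraries in the 5 stromal and muscle classes on the left, although the intervals overlap at 56 days in mural-like, Schwann-like and satellite-like cells. By UMIs summed over cells, B precursor-like cells are higher in IR at 24 hours only. B-like and T-like cells have no IR 56 days value. Rps2 is lower in CON 56 days than in IR 56 days, and Rps27rt is highest in IR 56 days wherever that library is drawn.

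Members with a known role apart from the ribosome were close to the family in endothelial-like cells. Rpl5 and Rpl11, which with 5S rRNA form the particle that inhibits MDM2, gave 0.999 and 0.947 at 24 hours and 0.889 and 0.993 at 56 days for IR over CON, as shares of ribosomal protein UMIs. Rpl23, which also binds MDM2, gave 1.03 and 1.05, and Rpl26, which binds p53 mRNA, gave 0.966 and 0.882. Rps3, which is also a DNA repair endonuclease, gave 1.06 and 0.917. Rps6, whose phosphorylation is the common readout of mTORC1 signalling, gave 1.11 and 0.901. Rpl13a, a part of the interferon-responsive GAIT complex, gave 0.997 and 0.826. None of these 7 members reached 1.5-fold at either time.

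Members at defined places on the ribosome, and those made in unusual forms, also stayed within 1.5-fold. Rplp0, Rplp1 and Rplp2 form the stalk that recruits elongation factors. They gave 1.01, 1.02 and 1.00 at 24 hours in endothelial-like cells, and 1.248, 0.883 and 1.06 at 56 days. Rpl38, needed in mice for the translation of Hox mRNAs, gave 0.907 and 1.17. Rpl41, the smallest ribosomal protein, gave 0.855 and 1.19. Rps27a, made as a fusion with ubiquitin, gave 0.930 and 0.927. Rps19bp1, the member that is no ribosomal protein, gave 1.08 and 1.18 with 54 to 151 UMIs in a library.

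Elsewhere the uneven members were few, and most of these classes held under 50 cells in a library, so the values rest on few cells. The background given with each class is the percentage of all genes called higher and lower there by the same rule and scale. At 24 hours mural-like cells (background 11.4% and 1.15%) and fibro-adipogenic progenitor-like cells (22.1% and 1.48%) had no uneven member among 80. T-like cells (20% and 0.725%) had Rps27 (0.545) and Rpl9 (0.644) lower. B-like cells (17.8% and 1.1%) had Rps27 lower (0.634). B precursor-like cells (18.9% and 4.57%) had Rps27rt (0.577), Rpl29 (0.654) and Rpl9 (0.659) lower. Rpl9 was also lower in myofibre-like barcodes (0.625, background 7.54% and 2.67%) and satellite-like cells (0.646, background 35.8% and 0.644%). Of these, Rps27, Rps27rt and Rpl9 belong to the near-identical pairs aligned above, while Rpl29 was not checked for copies. Schwann-like cells (13.6% and 2.1%) had Rpl23a higher (1.55) and Rpl35 lower (0.655).

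At 56 days mural-like cells (background 1.23% and 24.2%) had Rps2 (1.57) and Rps27rt (2.28) higher and Rpl5 lower (0.605). Fibro-adipogenic progenitor-like cells (4.92% and 9.6%) had Rps27rt (2.35), Rps2 (1.54) and Rpl7l1 (2.07, on 20 UMIs in IR and 27 in CON) higher. Schwann-like cells (3.78% and 12%) had Rps27rt (3.16), Rps27 (1.73) and Rps28 (1.56) higher. B precursor-like cells (1.05% and 29.5%) had Rps27rt (2.56) and Rps2 (2.13, with 56.7% of its IR UMIs in 1 cell) higher. Macrophage- or monocyte-like cells (3.68% and 13.6%) had Rps27rt (3.06) and Rps27 (1.50) higher. Rps27rt and Rps2 thus recurred over classes, as they did in endothelial-like cells.

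Satellite-like cells (6.98% and 3.07%), with 23 cells in IR, had Rpl21 (1.65), Rps27rt (2.15) and Rps27 (1.63) higher and Rps15 (0.653) and Rpl23a (0.632) lower. Erythroid-like cells (1.27% and 22.1%), with 24 cells in IR, had Rps27rt (3.25), Rps27 (1.59) and Rpl21 (1.56) higher, and Rpl23a (0.404), Rps15 (0.459) and Rps25 (0.660) were among those lower. Myofibre-like barcodes (1.66% and 10.1%) had Rps2 higher (1.71) and Rps14 (0.666), Rpl27 (0.649) and Rpl3l (0.647) lower.

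In satellite-like cells the level of many members was lower in both irradiated libraries than in both control libraries. As a share of all UMIs this held for 46 of 80 members, and for none in the other direction. Of all 3090 genes in that comparison, 11.9% were lower in both and 17.3% higher in both. With over 25% between the groups, 9 members were lower, among them Rpl4, Rpl7a, Rpl12, Rpl15, Rpl23a, Rps6, Rps15 and Rps25. By that limit 3.11% of all genes were lower and 6.21% higher. CON 24 hours and IR 56 days had 23 satellite-like cells each. As a share of ribosomal protein UMIs no member passed that limit.

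The members' shares were also compared between classes. Each member's share of ribosomal protein UMIs was compared over the 11 classes other than the myofibre-like barcodes, with libraries weighted equally. For the 79 members with at least 20 UMIs in each class, the median ratio of the highest to the lowest class was 1.70. It was at least 2-fold for 21 members and under 1.5-fold for 13. By the same rule and scale 96.1% of all 1586 genes were at least 2-fold apart, with a median of 7.98, which includes the differences in the family's total between classes. The libraries of the highest and the lowest class did not overlap for 77 of the 79 members. These classes were picked as the extremes of 11, so nothing is read from that count. The 10 members farthest apart are described next, without a test. Since 3′ counts are not scaled to length or capture, shares are compared between classes for 1 gene and not between genes.

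Neutrophil-like cells were richest in Rps9 and Rps27a. Rps9, a small-subunit protein of the decoding region, was 3.22% of their ribosomal protein UMIs and 1.13% in endothelial-like cells, 2.84-fold apart. Rps27a was 4.29% in neutrophil-like and 1.53% in B-like cells. Neutrophil-like cells were poorest in Rpl12, a protein at the base of the stalk, with 0.422% against 1.29% in T-like cells. They also had the least Rpl3, the protein next to the peptidyl transferase centre, with 0.688% against 1.78% in Schwann-like cells. Erythroid-like cells were richest in Rpl41, with 5.34% against 1.51% in satellite-like cells, and in Rplp0, with 3.31% against 1.24% in B-like cells. Rps29 was 3.18% in macrophage- or monocyte-like and 1.33% in satellite-like cells. Rps27rt was 0.180% in B-like and 0.0493% in erythroid-like cells, subject to its shared sequence.

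Some paralogs also differed by class. Rpl7l1, a paralog of Rpl7 with a role in nucleolar ribosome assembly, was 0.0943% of ribosomal protein UMIs in mural-like and 0.0131% in T-like cells, 7.18-fold apart. Rpl22l1, a paralog of Rpl22, was 0.715% in mural-like and 0.267% in macrophage- or monocyte-like cells. As a share of Rpl22 and Rpl22l1 together it was 37.7% to 53.2% over the libraries of the mural-like class, 23.5% to 28.9% in endothelial-like cells and 18.6% to 27.7% in macrophage- or monocyte-like cells. In endothelial-like cells it was 28.9% in IR 24 hours and 24.5% in CON 24 hours, and 26.5% in IR 56 days and 23.5% in CON 56 days. Both irradiated libraries were above both control libraries there, by a narrow margin.

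Rpl3l was the clearest case of a paralog tied to a class. In myofibre-like barcodes it had 258 UMIs beside 17 of Rpl3 in IR 24 hours, and 174 beside 21 in CON 24 hours. At 56 days it had 53 UMIs beside 1 of Rpl3 in IR, and 72 beside 3 in CON. Rpl3l thus held 93.8% of the pair in IR 24 hours and 89.2% in CON 24 hours, and 98.1% in IR 56 days and 96.0% in CON 56 days. The intervals of the IR and CON libraries overlapped at both times. In endothelial-like cells the share was 0.0961% to 0.223%, with 21 UMIs of Rpl3l beside 11734 of Rpl3. No fibro-adipogenic progenitor-like or B-like cell had an Rpl3l UMI, and the highest share in any other class and library was 3.69%, in neutrophil-like cells. Rpl3l was not among the 8 markers that define the myofibre-like barcodes.

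**Figure D5:**
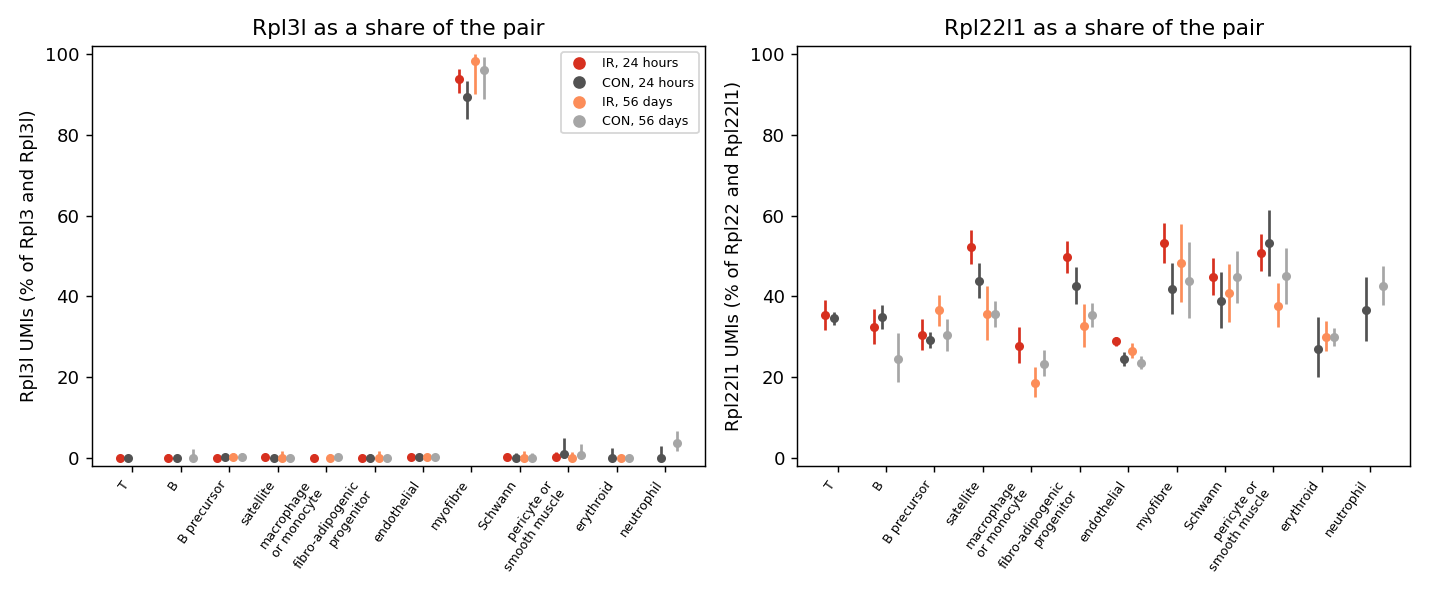
Share of Rpl3l in the UMIs of Rpl3 and Rpl3l (left) and of Rpl22l1 in those of Rpl22 and Rpl22l1 (right), in % on the vertical axes, by class (horizontal axis) and library (colour), with 95% counting intervals. Rpl3l holds 89.2% to 98.1% of its pair in myofibre-like barcodes and at most 3.69% elsewhere, while Rpl22l1 is spread between 18.6% and 53.2%.

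The remaining paralogs were rare or of mixed sequence. Rpl39l, a paralog of Rpl39 best known from the testis, had 43 UMIs over all cells of IR 24 hours and 5 in CON 24 hours. In endothelial-like cells it had 14 UMIs in IR 24 hours and 2 in CON 24 hours, and 6 in IR 56 days and 1 in CON 56 days. In fibro-adipogenic progenitor-like cells, however, it had 4 and 0 UMIs in IR and CON at 24 hours and 3 and 10 in IR and CON at 56 days. In the libraries with 20 cells or more of a class, no Rpl39l UMI was found in B-like, B precursor-like, T-like, Schwann-like, erythroid-like or neutrophil-like cells or in myofibre-like barcodes. Rpl36al held 40.4% to 49.8% of the UMIs of Rpl36a and Rpl36al in endothelial-like cells and 24.9% to 37.7% in satellite-like cells. Rpl10l, a retrogene also best known from the testis, had 3 UMIs in endothelial-like cells beside 246 of Rpl10, whose reads are shared with a pseudogene.

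Of the genes outside the rule, Rpsa, Fau and Rack1 had the family's direction at both times. Rps27l had it at 56 days and between the control libraries but not at 24 hours. In endothelial-like cells Rpsa, Fau and Rack1 gave 0.829, 0.864 and 0.840 for IR over CON at 24 hours, as shares of all UMIs, and 1.43, 1.10 and 1.18 at 56 days. Rps27l, a paralog of Rps27 induced by p53, had 7132 UMIs in IR 24 hours and 961 in CON 24 hours, a ratio of 2.37 (2.22 to 2.54). At 56 days it had 1819 UMIs in IR and 826 in CON, a ratio of 2.94 (2.70 to 3.19). It was above its CON level at both times while Rps27 was below at 24 hours (0.653) and above at 56 days (1.53). Between the control libraries Rps27l gave 0.579 and was called lower.

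Other lists of the translation machinery, chosen with earlier results of these data known, were described in endothelial-like cells as shares of all UMIs. On this scale 10.4% of all genes measured were called higher and 3.9% lower at 24 hours, 8.97% and 8.92% at 56 days, and 8.66% and 6.5% between the control libraries. Of 14 elongation factors and other mRNAs with the tract, none was called in any comparison. Their median log2 ratio was -0.21 at 24 hours, 0.29 at 56 days and -0.30 between the control libraries, the same signs as for the ribosomal protein genes. Of 36 ribosome biogenesis genes, 4 were higher and none lower at 24 hours, with a median of -0.03, and 2 were higher and 4 lower at 56 days, with a median of 0.12. Nop58, which guides methylation of rRNA, was higher in IR at 24 hours (1.83, 286 UMIs in IR and 50 in CON) and lower at 56 days (0.545, 67 UMIs in IR and 164 in CON). The control libraries differed by more, with a ratio of 2.21 for CON 56 days over CON 24 hours (164 and 50 UMIs).

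Of 26 initiation factors none was called at 24 hours and 1 was higher at 56 days (Eif2b1, 1.55). Of 78 genes for mitochondrial ribosomal proteins, 1 was higher and 1 lower at 24 hours, with a median log2 ratio of -0.10, and 14 were higher and none lower at 56 days, with a median of 0.30. Between the control libraries none was higher and 6 were lower, with a median of -0.26. Among 18 genes of mTORC1 and its regulators 3 were higher at 24 hours and 2 higher and 1 lower at 56 days. Sesn2, an inhibitor of mTORC1 that p53 induces, had 593 UMIs in IR 24 hours and 22 in CON 24 hours, a ratio of 8.63 (5.64 to 13.9). At 56 days it had 86 UMIs in IR and 13 in CON, a ratio of 8.83 (4.90 to 17.2). Both irradiated libraries were thus above both control libraries for Sesn2. Whether Sesn2 bears on the share of the ribosomal protein genes was not tested.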

How the data were processed

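The deposited files hold raw UMI counts for each gene and barcode. Per the submitters' processing notes and the headers of the files, the build was mm10 and the authors used Cell Ranger 5.0.0. The gene annotation is not given in the sources used here. Samples were grouped by their titles, with 1 library per group. The members, gene lists and tests were chosen with earlier results of these data known, and the thresholds of the class gate were set after the cells were seen.

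Barcodes were kept at 200 genes, 500 UMIs and no more than 20% mitochondrial UMIs. A class needed 3 of its own markers and 3 times as many as any other class. B-like cells with a precursor marker were called B precursor-like. Myofibre-like barcodes had 6 of 8 fibre markers and fewer than 3 of any other class. Of 5588 gated barcodes, 408 were at the minimum of 3 markers. A class was compared from 25 cells in each library. A limit of 20 cells was added after the data were seen and brought in the values named as resting on 23 or 24 cells. No doublet caller was run, since the gate sets aside barcodes with markers of several classes, and some doublets may still be included. Free RNA was not subtracted.

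For each class and library the UMIs of all its cells were added up, with no test and no p-value. Ratios carry exact conditional binomial intervals, and shares exact binomial (Clopper-Pearson) intervals, at 95%. For log2 values 0.5 was added to each count. Genes needed 20 UMIs over both libraries. Members were named if uneven (at most 6 in each direction for each class and comparison), if among the 10 that differed most between classes, or if they have a role of their own or a paralog. All 84 members were matched by Ensembl identifier to the GENCODE annotation of GRCm38. Start regions came from a RefSeq table, and the aligned transcripts came from GENCODE. Python 3.11.15, numpy 2.4.6, pandas 2.3.3 and scipy 1.17.1 were used. The ratio code was tested on simulated counts. Some genes are not reported here. Alternatives were another mitochondrial limit, other gates, depths, weights, totals and fold limits.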

Additional observations from a re-analysis of the deposited data

Results flagged for a closer look

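For the share of ribosomal protein UMIs, the irradiated library was below its control at 24 hours and above it at 56 days in all cells together (0.594 and 1.21). The same opposite directions were seen in endothelial-like cells (0.829 and 1.19), pericyte- or smooth muscle-like cells (0.793 and 1.40), fibro-adipogenic progenitor-like cells (0.780 and 1.08), Schwann-like cells (0.868 and 1.16) and B precursor-like cells (0.833 and 1.36). The effect at 24 hours and the effect at 56 days thus lay on opposite sides of 1, which is what singled these results out. In Schwann-like cells the value at 56 days was 0.910 without the 5% of cells with most UMIs, which is on the same side as at 24 hours. The difference between the times was not tested, since each group was 1 library.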

How the results depend on the processing

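No paired analysis was possible because each group was 1 library. Of 211 ratios of ribosomal protein shares computed under the alternatives, 203 kept their direction, among them all 21 in endothelial-like cells. Over all cells, IR over CON at 24 hours was 0.600 with a mitochondrial limit of 10%, 0.576 without the 5% of cells with most UMIs, 0.576 with cells thinned to 1000 UMIs, 0.603 with cells weighted equally and 0.603 with mitochondrial UMIs left out of the total. At 56 days it was 1.26 without the deepest cells, 1.27 thinned, 1.24 with equal weights and 1.20 without mitochondrial UMIs. CON 56 days over CON 24 hours was 0.618 with the mitochondrial limit, 0.539 without the deepest cells, 0.560 thinned, 0.576 with equal weights and 0.619 without mitochondrial UMIs. In endothelial-like cells IR over CON was 0.835 at 24 hours without mitochondrial UMIs. At 56 days it was 1.20 with 1 marker more in the gate, 1.17 without the deepest cells, 1.15 thinned, 1.14 with equal weights and 1.18 without mitochondrial UMIs. CON 56 days over CON 24 hours was 0.820 thinned and 0.802 without mitochondrial UMIs. Schwann-like cells at 56 days had 1.16 as reported, and 0.910 without the deepest cells, 0.852 thinned and 0.837 with equal weights. Satellite-like cells between the control libraries and myofibre-like barcodes at 24 hours, both near 1, crossed it in 3 and 2 alternatives. The erythroid-like ratio between the control libraries lay within 2.19 to 4.40 and the neutrophil-like one within 0.550 to 0.884. With a limit of 25% there were 6 uneven members in endothelial-like cells at 24 hours (2 higher and 4 lower, against 34.9% and 2.28% of all genes), 10 at 56 days (7 and 3, against 5.91% and 28.9%) and 1 between the control libraries (0 and 1, against 34.7% and 2.55%). As shares of all UMIs, 5 members were called at 24 hours (all lower, Rps19 not among them, against 3.9% of genes), 7 at 56 days (all higher, against 8.97%) and 2 between the control libraries (both lower, against 6.5%). The cause was not tested. Under 6 alternatives added after the data were seen, the Rps19 ratio lay within 1.67 to 1.73 at 24 hours and 1.46 to 1.54 at 56 days. With 1 library per group no spread between animals or libraries is known, and classes under 50 cells are the least certain.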
